A study of Homo sapiens with 6 samples.

Results

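NRF2, the transcription factor encoded by NFE2L2, and 9 enzymes of the haem, quinone, glutathione and thioredoxin systems were followed in RPE1 cells given the MDM2 inhibitor Nutlin-3. The genes were taken by symbol: NFE2L2, HMOX1, NQO1, GCLC, GCLM, TXNRD1, SRXN1, PRDX1, GPX1 and GPX4, 10 of the 57773 gene IDs in the deposited table. RPE1 is an established human line that was derived from retinal pigment epithelium and immortalised with telomerase. The series exposed these cells for 24 h to Nutlin-3 at 2.5 µM (3 RNA-seq libraries) or to its vehicle, DMSO (3 libraries). All 6 libraries came from this line, with no other genotype, dose or time. Nutlin-3 blocks the pocket through which MDM2 binds p53, so that p53 accumulates, and the series was made to find p53 target genes. Values are RPKM, reads scaled to gene length and library size, in which the authors took the whole gene span with its introns as the length.

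Under resting conditions KEAP1, an adaptor of the CUL3 ubiquitin ligase, marks NRF2 for destruction. Oxidants and electrophiles modify cysteines of KEAP1, NRF2 then accumulates, pairs with a small MAF protein and binds antioxidant response elements, from which BACH1 can keep it away. Its targets make glutathione, reduce thioredoxin and peroxiredoxins, degrade haem and reduce quinones. Links to p53 are known at several points: p21 can shield NRF2 from KEAP1, p53 can repress the cystine transporter gene SLC7A11, and GPX1 has been described as a p53 target. Because NRF2 is controlled mainly through protein stability, its mRNA level is not a measure of its activity.

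With Nutlin-3 the 10 genes did not move as a block. GPX1, HMOX1, TXNRD1 and GPX4 rose, GPX1 by the most, to 1.67 times its DMSO level. GCLM fell to 88.1% of its DMSO level. NFE2L2, NQO1, SRXN1 and PRDX1 did not pass the test, and GCLC was under the filter of 0.5 RPKM and was judged on reads only, where it did not pass. The test was limma on log2(RPKM + 0.5), adjusted over 12212 genes, with a threshold of 0.05. Of all tested genes 51.6% passed, 29.1% as rises and 22.5% as falls. Of the 9 members tested there 5 passed, a share near that of all tested genes, 4 as rises and 1 as a fall. On the reads recovered from the RPKM (limma voom) the same counts of 4 and 1 were found, where 50.3% of 20732 genes passed, 26.0% as rises and 24.3% as falls. In 5 of the 10 genes the libraries of the groups did not overlap, 4 with all Nutlin-3 libraries above and 1 with all below. Among all tested genes 61.8% did not overlap, 34.4% with Nutlin-3 above and 27.4% below. In bulk RNA a change in the share of cells that express a gene and a change of RNA per cell cannot be told apart.

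Over the whole series, the reads recovered from the RPKM came to between 28.4 and 41.1 M per library, and each of the 10 genes had between 714 and 28414 reads in a library. The authors' library sizes were from 1.03 to 1.05 times these totals in DMSO and from 0.961 to 0.980 times in Nutlin-3. Compared with scaling by the totals, these sizes raise Nutlin-3 values relative to DMSO. The same sizes enter the RPKM, the limma voom fit and the levels per exon length. No fit was run with the totals as library sizes. MDM2 rose 3.66-fold and CDKN1A, which encodes p21, 7.24-fold. Of 12 markers of retinal pigment epithelium, 4 were under 10 reads in every library, and RPE65, the retinoid isomerase that defines the mature tissue, had a mean of 0.00192 RPKM in DMSO. The list members highest in RPKM moved in opposite directions: RDH5 rose from 2.93 to 4.62 RPKM and OTX2 fell from 3.18 to 2.60 RPKM. RPKM on the gene span lowers long genes, so this order and the marker sums depend on gene length. MITF, at 0.207 RPKM in DMSO and 0.202 RPKM in Nutlin-3, did not pass on reads (limma voom adjusted p = 0.650). The summed level of the list was between 6.06 and 6.72 RPKM in DMSO and between 7.55 and 7.62 RPKM in Nutlin-3. The sum of 5 simple epithelial markers, mostly KRT18, was between 42.9 and 47.3 RPKM in DMSO and between 74.8 and 79.8 RPKM in Nutlin-3. The sum of 8 mesenchymal markers was between 499.9 and 548 RPKM in DMSO and between 493 and 523 RPKM in Nutlin-3. In it VIM, at 474 and 445 RPKM, did not pass on RPKM, COL1A1 rose 1.65-fold and THY1 rose 1.33-fold. On reads VIM passed as a fall (log2 fold change -0.09, limma voom adjusted p = 0.0324). PDGFRB passed as a rise on reads only (log2 fold change 0.24, limma voom adjusted p = 0.000330). The part of these shifts in the results was not tested. Of 7 haematopoietic markers 6 were under 10 reads in every library, the exception being the lysosomal CD68, as were 2 of the 3 endothelial markers found in the table.

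Promoter letters are shown for the members in which a searched motif was found. RefSeq gave starts on GRCh38.p14 for 8 of the 10 genes, all but HMOX1 and PRDX1, in 12 windows of 250 bases before a start. The antioxidant response element was searched as TGACNNNGC on both strands, and 10.9% of 35116 such windows in the genome hold it. It was found in GCLM and in both TXNRD1 windows. The p53 decamer, the unit that is repeated in a p53 response element, occurs in 5.57% of the windows and was found in GPX1. Its search pattern is its own reverse complement, so every match reads as a match on both strands. No window held both motifs. The sequences run 5′ to 3′ on the gene's strand, up to the base before the start, and capitals mark the match.
GPX1, chr3:49358354-49358603, minus strand: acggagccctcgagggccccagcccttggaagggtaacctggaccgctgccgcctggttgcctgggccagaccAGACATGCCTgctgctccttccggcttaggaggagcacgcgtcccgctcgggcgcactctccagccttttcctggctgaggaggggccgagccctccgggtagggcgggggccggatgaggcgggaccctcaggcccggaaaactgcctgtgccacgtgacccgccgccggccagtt
GCLM, chr1:93909431-93909680, minus strand: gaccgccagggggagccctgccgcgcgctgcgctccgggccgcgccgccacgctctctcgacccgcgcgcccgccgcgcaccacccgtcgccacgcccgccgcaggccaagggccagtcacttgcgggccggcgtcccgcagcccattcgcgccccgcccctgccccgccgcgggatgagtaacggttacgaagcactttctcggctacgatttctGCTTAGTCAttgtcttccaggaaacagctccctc
TXNRD1 upstream start, chr12:104215529-104215778, plus strand: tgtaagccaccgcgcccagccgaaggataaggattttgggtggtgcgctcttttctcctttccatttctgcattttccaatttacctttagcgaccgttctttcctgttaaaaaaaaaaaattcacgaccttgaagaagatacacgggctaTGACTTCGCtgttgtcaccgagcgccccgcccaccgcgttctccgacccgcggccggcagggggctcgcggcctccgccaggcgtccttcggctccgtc
TXNRD1 downstream start, chr12:104286782-104287031, plus strand: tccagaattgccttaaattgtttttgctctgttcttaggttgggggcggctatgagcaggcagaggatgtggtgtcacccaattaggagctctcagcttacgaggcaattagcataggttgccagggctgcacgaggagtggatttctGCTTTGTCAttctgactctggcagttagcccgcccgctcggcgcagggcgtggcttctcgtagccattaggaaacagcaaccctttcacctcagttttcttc
In GPX1 the match lies from 177 to 168 bases before the start. In GCLM it lies from 34 to 26 bases before the start. In TXNRD1 the matches lie from 99 to 91 bases before the upstream start and from 102 to 94 bases before the downstream start. These are matches of letters and not measured binding. Bases farther than 250 from a start were not searched, so a gene without a match may still carry an element. Of the genes with an antioxidant response element match in these windows, TXNRD1 rose and GCLM fell.

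NFE2L2 (ENSG00000116044, chromosome 2) was at 0.678, 0.670 and 0.738 RPKM in DMSO replicates 1 to 3 and at 0.701, 0.704 and 0.668 RPKM in Nutlin-3 replicates 1 to 3. The groups overlapped throughout. The means were 0.695 ± 0.0374 and 0.691 ± 0.0196 RPKM (SD, n = 3), and the log2 fold change was -0.01 with a 95% confidence interval from -0.09 to 0.08 (limma adjusted p = 0.910). A transcript annotated on the same strand (ENSG00000213963) lies inside the span, covers 17.6% of the NFE2L2 exon length and held 12.8% of the reads counted for NFE2L2. Without reads of such inner genes the log2 fold change was -0.03 (limma voom adjusted p = 0.599).

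**Figure D1:**
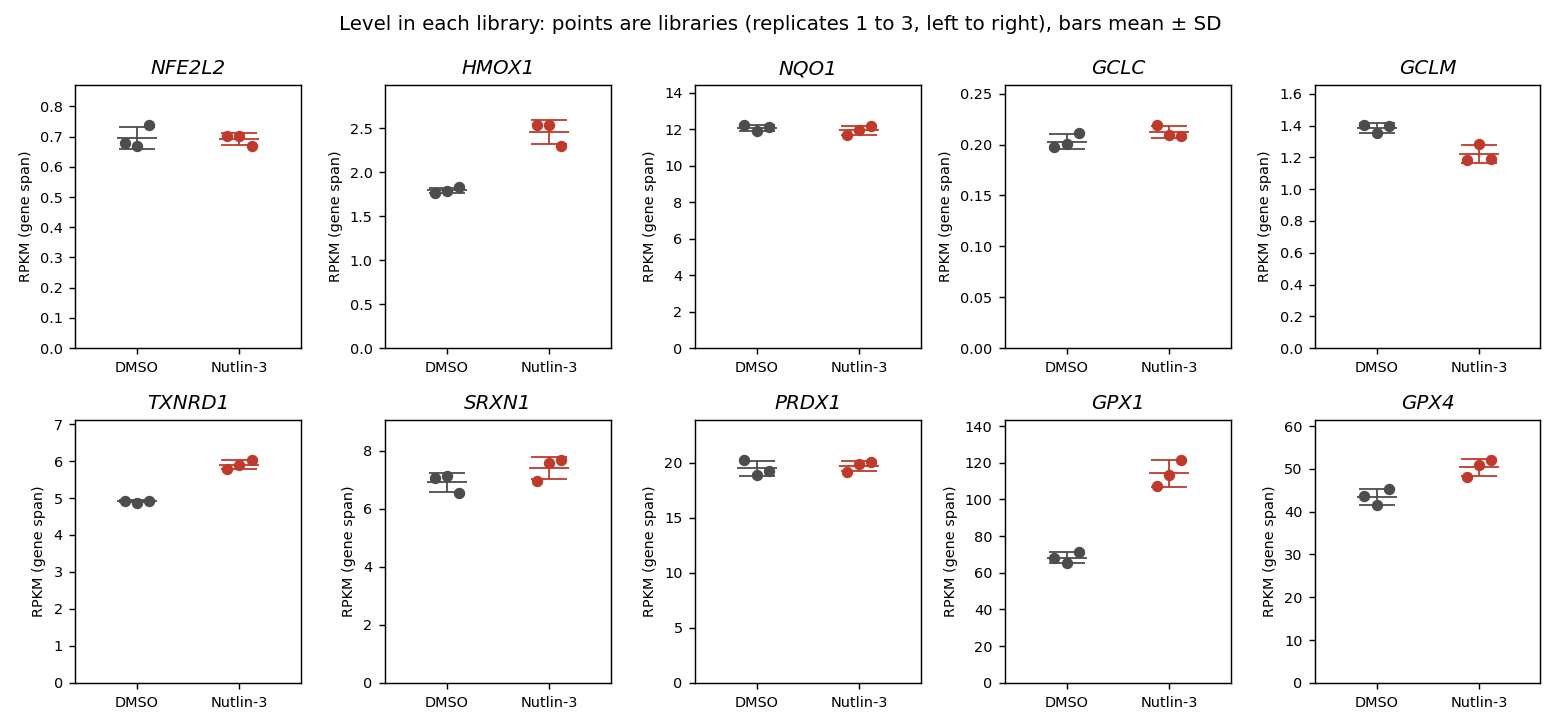
RPKM of each gene in each library, with 1 panel per gene, the vertical axis from 0, points for the libraries and bars for mean ± SD (n = 3 per group). GPX1, HMOX1, TXNRD1 and GPX4 have every Nutlin-3 library above every DMSO library, GCLM has every one below, and the other 5 genes overlap.

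The first step of glutathione synthesis is made by glutamate-cysteine ligase, whose catalytic subunit is GCLC and whose modifier subunit is GCLM. The modifier fell while the catalytic subunit did not pass. GCLM (ENSG00000023909, chromosome 1) was at 1.40, 1.35 and 1.40 RPKM in DMSO and at 1.19, 1.29 and 1.19 RPKM in Nutlin-3. Every Nutlin-3 library was below every DMSO library. The log2 fold change was -0.13 (SE 0.032, limma adjusted p = 0.0182) on RPKM and -0.18 (SE 0.050, limma voom adjusted p = 0.00365) on reads. On RPKM the call was lost without DMSO replicate 1, DMSO replicate 3, Nutlin-3 replicate 1 or Nutlin-3 replicate 3, with limma adjusted p from 0.0535 to 0.0610.

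GCLC (ENSG00000001084, chromosome 6) has a span of 119630 bases, which puts its RPKM under the filter although it had at least 714 reads in every library. It was at 0.197, 0.200 and 0.211 RPKM in DMSO and at 0.219, 0.209 and 0.208 RPKM in Nutlin-3, and the groups overlapped. On reads the log2 fold change was 0.07 with a 95% confidence interval from -0.04 to 0.18 (limma voom adjusted p = 0.320). The number of GCLM reads per GCLC read was 1.44, 1.37 and 1.34 in DMSO and 1.10, 1.25 and 1.16 in Nutlin-3. This ratio within a library did not overlap between the groups, with a log2 difference of -0.25. With 3 libraries per group an exact 2-sided permutation test cannot go below 0.1, and it gave p = 0.1.

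In the thioredoxin system TXNRD1, the cytosolic selenoprotein that reduces thioredoxin with NADPH, rose. TXNRD1 (ENSG00000198431, chromosome 12) was at 4.92, 4.88 and 4.92 RPKM in DMSO and at 5.77, 5.90 and 6.03 RPKM in Nutlin-3. The groups were well apart, and the gene rose to 1.20 times its DMSO level, with a log2 fold change of 0.24 (SE 0.026, limma adjusted p = 0.000871). The ribosomal protein pseudogene RPL18AP3 lies inside the span on the same strand and held 13.1% of the TXNRD1 reads in DMSO and 12.4% in Nutlin-3. Without the reads of inner genes the log2 fold change was 0.28 (limma voom adjusted p = 3.82e-08), against 0.27 with them.

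PRDX1 and SRXN1 are partners: PRDX1 is a peroxiredoxin that reduces hydrogen peroxide, and SRXN1, sulfiredoxin, repairs overoxidised peroxiredoxins. Neither passed. PRDX1 (ENSG00000117450, chromosome 1) was at 20.3, 18.9 and 19.3 RPKM in DMSO and at 19.2, 19.9 and 20.1 RPKM in Nutlin-3, with a log2 fold change of 0.01 and a 95% confidence interval from -0.08 to 0.11 (limma adjusted p = 0.765). SRXN1 (ENSG00000271303, chromosome 20) was at 7.07, 7.15 and 6.55 RPKM in DMSO and at 6.97, 7.57 and 7.69 RPKM in Nutlin-3. The highest pair of SRXN1 values came from Nutlin-3 libraries, but Nutlin-3 replicate 1 lay within the DMSO range. Its log2 fold change was 0.09 with a 95% confidence interval from -0.04 to 0.22 (limma adjusted p = 0.189). In all 6 libraries its reads equalled those of a second protein-coding gene model on the same strand (ENSG00000270299), which holds 85.0% of its exon length, so the value cannot be assigned to SRXN1 alone.

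Both glutathione peroxidases rose. GPX1 (ENSG00000233276, chromosome 3) encodes the cytosolic and mitochondrial selenoenzyme that reduces hydrogen peroxide with glutathione. It was at 68.0, 65.2 and 71.3 RPKM in DMSO and at 107, 114 and 122 RPKM in Nutlin-3. The lowest Nutlin-3 library was far above the highest DMSO library. The means were 68.2 ± 3.02 and 114 ± 7.13 RPKM (SD, n = 3), and the log2 fold change was 0.74 (SE 0.058, limma adjusted p = 0.000317). Of all tested genes 1.70% had a larger log2 fold change. GENCODE 29 classes the locus as a polymorphic pseudogene and lists 2 pseudogenes named after it. GPX1P1 had between 323 and 708 reads per library and GPX1P2 between 36 and 82, and how reads were shared among these copies is not given in the sources used here.

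GPX4 is the selenoenzyme that reduces lipid hydroperoxides in membranes and so protects cells from ferroptosis. GPX4 (ENSG00000167468, chromosome 19) was at 43.5, 41.6 and 45.3 RPKM in DMSO and at 48.2, 50.9 and 52.1 RPKM in Nutlin-3. The groups did not overlap, and the gene rose to 1.16 times its DMSO level, with a log2 fold change of 0.21 (SE 0.046, limma adjusted p = 0.0125). Under quantile normalization it was 0.11 (limma adjusted p = 0.0134). The number of GPX1 reads per GPX4 read was 0.781, 0.784 and 0.787 in DMSO and 1.11, 1.12 and 1.17 in Nutlin-3. The ratio was higher in every Nutlin-3 library than in every DMSO library, with a log2 difference of 0.53 (exact 2-sided permutation p = 0.1, the smallest possible here). These reads are not corrected for length, and the merged exons are 1430 bases in GPX1 and 2019 in GPX4. Per kilobase of merged exon GPX1 was already above GPX4 in DMSO, with means of 67.9 and 61.4.

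HMOX1 and NQO1 are common readouts of NRF2 activity, of which HMOX1 rose and NQO1 did not pass; the difference between them was not tested. HMOX1 (ENSG00000100292, chromosome 22), haem oxygenase 1, which opens the haem ring to biliverdin, iron and carbon monoxide, was at 1.77, 1.78 and 1.83 RPKM in DMSO and at 2.53, 2.54 and 2.30 RPKM in Nutlin-3. Every Nutlin-3 library was above every DMSO library. The gene rose to 1.37 times its DMSO level, with a log2 fold change of 0.37 (SE 0.039, limma adjusted p = 0.000924) on RPKM and of 0.46 (limma voom adjusted p = 9.07e-08) on reads. HMOX1 also answers to haem through BACH1 and to other stress pathways. NQO1 (ENSG00000181019, chromosome 16), the quinone reductase, was at 12.2, 11.9 and 12.1 RPKM in DMSO and at 11.7, 11.9 and 12.2 RPKM in Nutlin-3. The groups overlapped, and the log2 fold change was -0.02 with a 95% confidence interval from -0.09 to 0.05 (limma adjusted p = 0.638). Under quantile normalization NQO1 passed as a fall (log2 fold change -0.09, limma adjusted p = 0.0178).

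**Figure D2:**
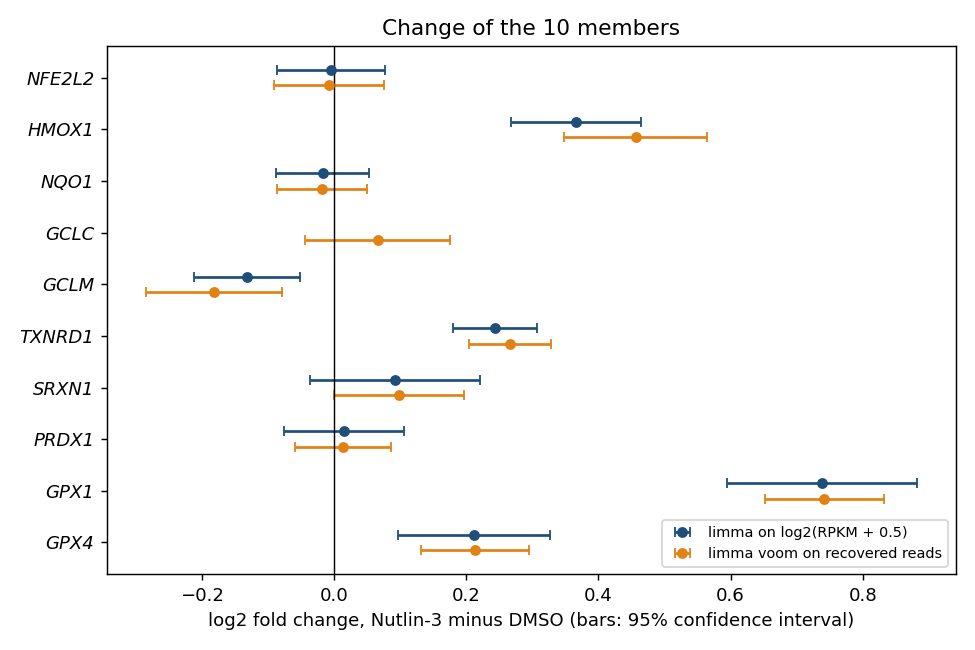
Log2 fold change of each gene, Nutlin-3 minus DMSO, with 95% confidence intervals, from limma on log2(RPKM + 0.5) and from limma voom on recovered reads. GPX1 stands highest at 0.74 in both, GCLM lies below 0 in both, and GCLC has a value on reads only.

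Levels of different genes were compared as reads per kilobase of merged exon, scaled by library size like RPKM, with exons from GENCODE 29, since RPKM on the gene span lowers long genes. On that scale the DMSO means ran from 154 for PRDX1 through 98.4 for TXNRD1, 74.2 for NQO1, 67.9 for GPX1 and 61.4 for GPX4 to 19.2 for NFE2L2, 17.3 for SRXN1, 10.3 for HMOX1, 6.19 for GCLM and 2.81 for GCLC. In DMSO no neighbours in this order overlapped. The peroxidase and reductase genes thus stood at the top and the glutamate-cysteine ligase genes at the bottom. In Nutlin-3 GPX1, at a mean of 114, moved past NQO1 and overlapped TXNRD1, whose libraries ran from 116 to 121 against 107 to 121 for GPX1. GPX4 (68.1 to 73.6) overlapped NQO1 (71.6 to 74.9), and SRXN1 (17.5 to 19.3) overlapped NFE2L2 (18.5 to 19.4). These levels count reads in introns and use exons of all isoforms, which lowers genes with long, rarely used exons.

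**Figure D3:**
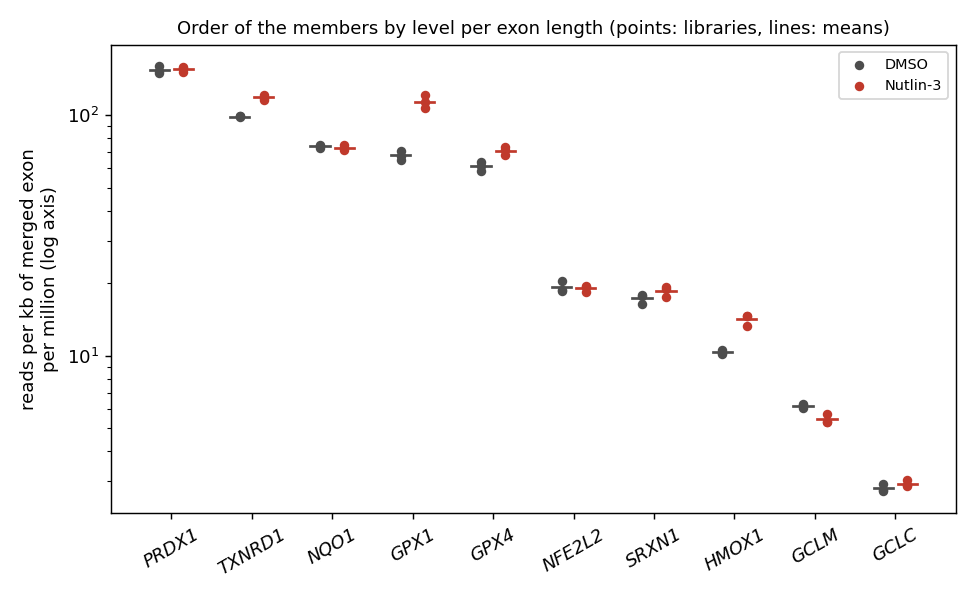
Reads per kilobase of merged exon, scaled by library size, on a log axis, for each gene in each library, in the order of the DMSO means (points are libraries, lines are means). PRDX1 is highest and GCLC lowest in both groups, and GPX1 and NQO1 exchange places.

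The genes around the NRF2 switch were followed in fixed lists, read against the same shares of all tested genes. Of 12 regulators, 9 were tested, 5 rose and 1 fell; the median of their log2 fold changes was 0.14, against 0.02 for all genes. MAFK, a small MAF partner of NRF2, rose 1.57-fold from 2.63 ± 0.105 to 4.14 ± 0.224 RPKM (SD, n = 3). SQSTM1, or p62, an autophagy receptor that can hold KEAP1 and is itself an NRF2 target, rose 1.35-fold. KEAP1 was at 2.64 ± 0.166 and 2.47 ± 0.144 RPKM and did not pass (limma adjusted p = 0.284). BACH1, under the filter, was at 0.136 ± 0.0102 and 0.136 ± 0.00873 RPKM. CUL3 fell to 0.890 of the level in DMSO. It no longer passed when any 1 library other than DMSO replicate 2 was left out (limma adjusted p from 0.0511 to 0.0674) and under quantile normalization (limma adjusted p = 0.0566).

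Other glutathione genes went both ways. Of 34 genes, 28 were tested, 9 rose and 6 fell, with a median of 0.08. GSS, glutathione synthetase, which makes the second step after glutamate-cysteine ligase, rose 1.22-fold, while GSR, the reductase that regenerates glutathione, fell to 0.864 and SLC7A11, the cystine transporter subunit, fell to 0.797 of the DMSO level. The transferases GSTK1 and GSTA4 rose 1.30-fold and 1.35-fold. CHAC2, a glutathione-degrading cyclotransferase, fell to 0.608, and GLO1, the glyoxalase that uses glutathione to clear methylglyoxal, fell to 0.848 of the DMSO level.

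Of 20 further thioredoxin and peroxiredoxin genes, 12 were tested, 8 rose and 1 fell, with a median of 0.14. PRDX5, a peroxiredoxin of mitochondria, peroxisomes and cytosol, rose 1.42-fold from 25.3 ± 0.268 to 35.9 ± 1.16 RPKM, and SESN2, a sestrin and known p53 target, rose 2.45-fold. Thioredoxin itself (TXN) was at 13.1 ± 1.13 and 13.3 ± 0.202 RPKM and did not pass (limma adjusted p = 0.781). The mitochondrial PRDX3 fell to 0.912 of the level in DMSO. It no longer passed when any 1 library other than DMSO replicate 1 was left out (limma adjusted p from 0.0507 to 0.119), or with the filter dropped (limma adjusted p = 0.0671).

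Among superoxide dismutases and catalase, 4 of 5 genes were tested, 2 rose and 1 fell. Catalase (CAT) rose 1.20-fold and CCS, the copper chaperone of SOD1, rose 1.46-fold. SOD1 was at 12.6 ± 0.740 and 12.1 ± 0.121 RPKM and did not pass (limma adjusted p = 0.373), but passed as a fall under quantile normalization (limma adjusted p = 0.0273). The mitochondrial SOD2 fell to 0.900 of the level in DMSO, and no longer passed when DMSO replicate 3 or any 1 Nutlin-3 library was left out (limma adjusted p from 0.0507 to 0.0689).

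Of 42 other known NRF2 targets, 25 were tested, 11 rose and 4 fell, with a median of 0.06. The ferritin genes FTH1 and FTL, which store iron, rose 1.42-fold and 1.24-fold. Quantile normalization lowered the log2 fold change of FTH1 from 0.51 to 0.24. The carbonyl reductase CBR3 fell to 0.615 of its DMSO level. UGDH, which makes UDP-glucuronate, fell to 0.901. It no longer passed when any 1 library other than DMSO replicate 2 was left out (limma adjusted p from 0.0688 to 0.113), or with the filter dropped (limma adjusted p = 0.0830).

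GPX1, GPX4 and TXNRD1, which rose, are selenoproteins. Of 25 other genes for selenoproteins and for selenocysteine insertion, 14 were tested, 6 rose and 1 fell, with a median of 0.12. On reads 21 were tested, 11 rose and 4 fell. The list shares genes with those above, so the rises of MSRB1 and GPX3 are counted there too. MSRB1, a methionine sulfoxide reductase, rose 1.32-fold and SELENOW 1.25-fold. SEPHS1, a relative of selenophosphate synthetase, fell to 0.681 of its DMSO level.

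Of 15 known p53 targets linked to redox balance, 12 were tested, 11 rose and 0 fell, with a median of 0.79, against 0.09 for the 9 tested members. On reads 13 of 14 rose and 1 fell. These genes were listed because they are known p53 targets, so their direction is not independent evidence. CDKN1A rose 7.24-fold, FDXR, the mitochondrial ferredoxin reductase, 4.30-fold, and TIGAR, which diverts glucose into the pentose phosphate pathway, 2.69-fold. SESN1, under the filter, rose on reads by 1.51 on the log2 scale (limma voom adjusted p = 1.87e-17). AIFM2, the ubiquinone reductase FSP1, named after its values were seen, was the tested gene that did not pass on RPKM, at 0.975 RPKM in DMSO and 0.895 RPKM in Nutlin-3, and it fell on reads by 0.13 on the log2 scale.

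**Figure D4:**
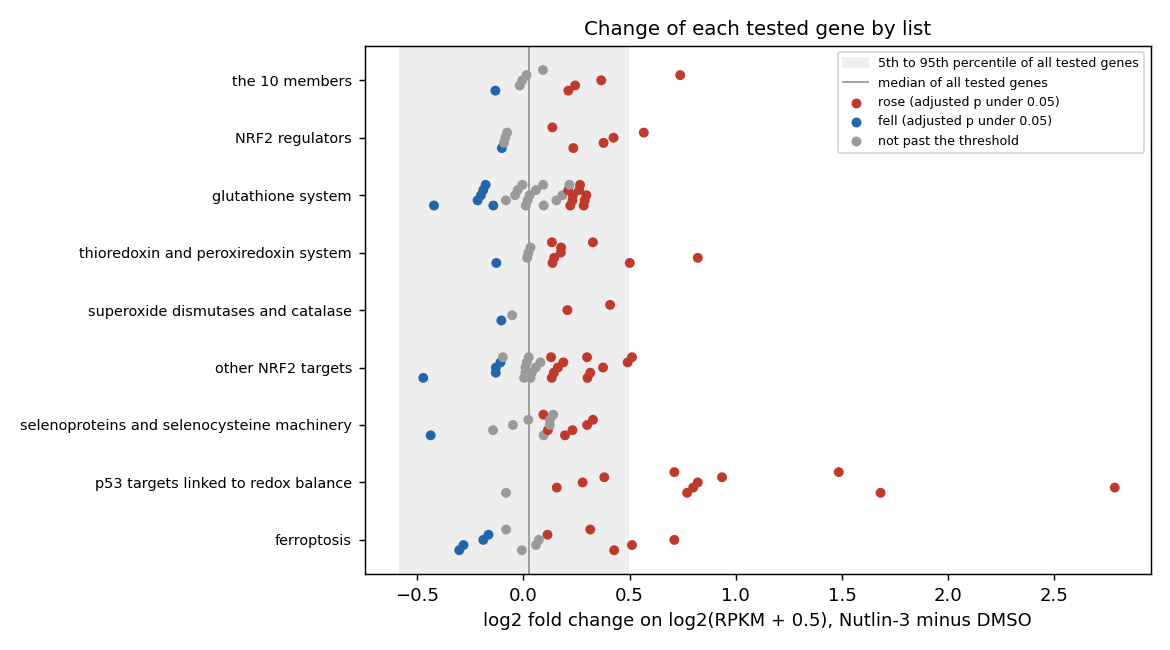
Log2 fold change on log2(RPKM + 0.5) of each tested gene, by list, coloured by the call at an adjusted p of 0.05, over a band from the 5th to the 95th percentile of all tested genes. Most genes of the redox lists lie inside the band. Above it lie GPX1 at 0.74, SESN2 at 0.82, SAT1 at 0.71, MAFK at 0.57, FTH1 at 0.51 and PRDX5 at 0.50. The p53 target list reaches to 2.78.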

How the data were processed

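Per the labels' protocols, poly(A) RNA of RPE1 cells, 3 samples per group, was made into stranded TruSeq libraries. The submitters' processing notes name hg19, CASAVA 1.8.2, TopHat2 and edgeR, with no role stated. Counter and annotation: not given in the sources used here. RPKM, 1 column per library, were deposited by the authors. Groups came from the labels, which do not say whether replicates were separate cultures, so p-values measure only library-to-library spread, possibly technical.

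RPKM times the GENCODE 29 gene span gave whole reads (within 0.01) for 89.0% of low values, against 25.3% with exon length. Reads were recovered for all 36363 genes above 0; for 8825 of them the length was found from the values and reads may be low by a whole factor. In 448 pairs a gene with at least 200 reads lay wholly inside another on the same strand. In 0 of these pairs the inner gene had more reads than the outer gene. On opposite strands it had more in 268 of 612 pairs. Reads of inner genes were thus also counted for the outer gene, by strand.

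The main test was limma 3.58.1 in R 4.3.3 on log2(RPKM + 0.5), for 12212 genes whose mean reached 0.5 RPKM, with a mean-variance trend, no covariate and p-values adjusted by Benjamini-Hochberg. This scale understates changes of low genes; folds are ratios of mean RPKM. limma voom on recovered reads (mean of at least 10, the authors' library sizes) was an alternative, since the span lowers long genes. The fits were tested on simulated data with independent noise and few changed genes. Here 51.6% of tested genes passed, so that run does not measure the errors in these data. Replicate pairs differed by more than sampling noise, and most so with DMSO replicate 1, the deepest library. The mean chi-square per gene was 3.99 and 4.82 in its pairs within DMSO. It was from 1.63 to 2.51 in the other pairs within a group. Members, lists and alternatives were chosen with earlier results of these data known. Of 175 list genes 173 matched an ID. TXNIP was not analysed here. By rule, all 10 members, 19 fixed genes and, per list, up to 2 rises and 2 falls past the threshold without overlap were to be named; some that the rule takes are not reported here.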

Additional observations from a re-analysis of the deposited data

How the results depend on the processing

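GPX1, HMOX1, TXNRD1 and GPX4 passed as rises under every alternative run. The count of members that fell, 1 as reported, was 2 under quantile normalization, with NQO1 added, 0 with a replicate block, where GCLM had a limma adjusted p of 0.0692, and between 0 and 1 when each library was left out. On recovered reads 5381 genes of the table rose and 5044 fell, with 20732 tested, against 3551 and 2745 on RPKM. Of the 108 list genes tested on RPKM, 51 rose and 17 fell, where 29.1% of all tested genes rose and 22.5% fell. The lists include the known p53 targets. The count of list genes that fell was 10 of 81 tested with a minimum mean of 1 RPKM and 27 of 148 tested on recovered reads. It was 11 with a replicate block and between 11 and 14 when each library was left out. The causes were not tested, except that the stricter filter tests fewer genes and the reads test more. No shared signal of same-numbered libraries was seen: their deviations from the group means correlated with r of -0.0246, 0.00795 and 0.0174 across genes. DMSO replicate 1 correlated best with Nutlin-3 replicate 3. Such weak values cannot show whether the cultures were handled in pairs. With that replicate block 2936 genes rose and 2199 fell, and CUL3, PRDX3, SOD2 and UGDH no longer passed, with limma adjusted p of 0.0761, 0.0743, 0.0810 and 0.110. The removal of reads of inner genes was chosen after seeing the data and changed no call. Median-of-ratios scaling moved the median log2 fold change of all genes from 0.02 to 0.00 and the calls to 3206 rises and 3216 falls, so that 49.9% of calls were rises against 56.4% as reported; of the list genes 47 rose and 22 fell. Under quantile normalization the log2 fold change of GPX4 was 0.11, against 0.21, and that of FTH1 0.24, against 0.51. The pseudocount shrinks low genes: on reads the log2 fold changes were -0.33 for SLC7A11, -0.17 for CUL3, 0.45 for GSTA4, -0.73 for CHAC2, 1.30 for SESN2, -0.71 for CBR3, -0.47 for CISD1 and 1.43 for TIGAR, against -0.19, -0.10, 0.29, -0.42, 0.82, -0.47, -0.30 and 0.77 on RPKM. The number of libraries, 3 per group, limits how small a change could be seen.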

Other observations

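The ferroptosis list, of which 13 of 22 genes were tested, was split, with 5 rises and 4 falls and a median log2 fold change of 0.06. SAT1, a polyamine acetyltransferase that is also a p53 target, rose 1.68-fold from 7.74 ± 0.188 to 13.0 ± 0.729 RPKM (SD, n = 3). CISD1, an iron-sulfur protein of the outer mitochondrial membrane, fell to 0.726 and the channel VDAC3 to 0.811 of the DMSO level. FTH1 and SLC7A11 belong to this list too.

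None of 13 oxidase genes that can produce reactive oxygen species reached the RPKM filter. On recovered reads 7 were tested, 1 rose and 1 fell by limma voom. These were XDH, xanthine dehydrogenase, with a log2 fold change of 0.38, and NOX1, an NADPH oxidase, with -0.64; both were named after their values were seen.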
